A study of Homo sapiens with 4 samples.

Results

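The NODAL and activin pathway was followed through 4 bulk RNA libraries of H9 cells, an established line of human pluripotent stem cells in the primed state. Its 10 members were taken by symbol, all were found among the 33640 genes of the count files, and they are NODAL, GDF3, LEFTY1, LEFTY2, TDGF1, ACVR1B, ACVR2A, ACVR2B, SMAD2 and SMAD3. The cells were kept undifferentiated in Essential8 medium on Geltrex, their nuclei were fixed with formaldehyde, and polyadenylated RNA was captured in the nuclei by reverse transcription (RT). Transcription into cDNA preceded tagmentation with Tn5 in the Pre libraries and followed it in the Post libraries. In each order 1 library was labelled RNA only, here Pre-solo and Post-solo, and the other comes from nuclei whose DNA was also tagmented at H3K27me3 and H3K27ac, RNA and DNA, here Pre-dual and Post-dual. What the RNA only nuclei underwent in place of DNA tagmentation is not given in the sources used here. The question was whether chromatin profiling in the same nuclei, or the order of the steps, alters the transcriptome. Each condition is 1 library, so no difference below has a replicate check, and whether the libraries come from separate cultures is not given. Each library enters a comparison of Post over Pre and 1 of dual over solo, so the 4 comparisons share libraries. Intervals are at 95% and hold counting error alone, and an overlap of separate intervals does not show that the values are equal. In such bulk samples fewer cells that express a gene and less RNA per cell cannot be told apart.

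NODAL, GDF3 and the activins are ligands of the TGF-beta family. They bind type II receptors (ACVR2A, ACVR2B), which phosphorylate the type I receptor ACVR1B, also called ALK4, and this receptor in turn phosphorylates SMAD2 and SMAD3, which enter the nucleus with SMAD4. NODAL also needs a coreceptor of the EGF-CFC family such as TDGF1 (CRIPTO), and LEFTY1 and LEFTY2 are secreted antagonists that are themselves targets of the pathway. In primed human pluripotent cells this signalling maintains expression of NANOG and the undifferentiated state, and stronger signalling drives cells towards mesendoderm.

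Some of these genes have near-identical copies, and only uniquely mapped reads were counted, so the sequences bear on what the counts can hold. The coding sequences of LEFTY1 and LEFTY2 are each 1101 bases long and differ at 31 of them, an identity of 97.2%. Of all stretches of 50 bases along this alignment, 46.9% hold no difference at all, and of those of 100 bases 26.4% hold none.

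TDGF1 has the same difficulty with its pseudogenes. The closest, TDGF1P3 on chromosome X, matches all 567 coding bases at an identity of 98.8%, and none of the pseudogenes of TDGF1 has a row of its own in the count files. Only coding sequences were compared, for TDGF1 as for the LEFTY genes. The canonical transcript of TDGF1 is 1956 bases long, and how well reads from its other bases or from introns can be assigned was not tested. The last 120 bases of the longest coding exon of TDGF1, at chr3:46579247-46579366 on the plus strand of GRCh38, are shown from GENCODE release 44 beside the matching bases of TDGF1P3, at chrX:110521233-110521352 on the plus strand, because they show how few bases tell reads of the pair apart. Capitals mark the 3 bases at which they differ.

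TDGF1: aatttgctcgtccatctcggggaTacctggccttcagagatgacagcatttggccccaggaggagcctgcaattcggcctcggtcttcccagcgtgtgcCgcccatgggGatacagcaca

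TDGF1P3: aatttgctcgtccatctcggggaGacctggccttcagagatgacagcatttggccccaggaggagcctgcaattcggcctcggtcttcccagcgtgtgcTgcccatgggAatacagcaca

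The libraries held 6368721 to 10089552 deduplicated counts. Levels are in RPM, the counts of a gene scaled to a common library total. Post-solo stood apart, since 6 genes with the clone names FP236383 or FP671120 took 34.8% of its counts and 10.7% to 15.8% of those of the other libraries. Over the 11564 genes that averaged 10 RPM or more, the median of log2(Post over Pre) was −0.44 in the solo pair and −0.09 in the dual pair. That of dual over solo was 0.03 in the Pre libraries and 0.38 in the Post libraries. Folds of single genes below were divided by this median, so that 1-fold means that a gene kept pace with the typical gene. All 12 markers of undifferentiated cells had at least 10 RPM in every library, TDGF1 among them. The 10 markers of mesendoderm and endoderm summed to 6.28 to 10.4 RPM, and 6 of them were below 1 RPM in every library. The summed level of 7 neuroectoderm markers was 40.3 to 51.7 RPM, most of it MAP2, that of 7 amnion and trophoblast markers 8.01 to 16.6 RPM, that of 6 naive markers 7.69 to 11.4 RPM and that of 6 stromal markers, mostly VIM, 93.9 to 135 RPM. No marker of these lists was at 0 in every library.

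Per length of exon, the coreceptor TDGF1 had by far the highest level of the group, and the ligands had the lowest together with LEFTY2. In plain RPM SMAD2 was above TDGF1 in every library, at 139 to 183 RPM against 103 to 147 RPM. RT started from a poly-T primer, and whether counts grow with exon length was not tested, so the order per kilobase rests on that division. TDGF1 had 51.9 RPM per kilobase of exon in Pre-solo, 59.0 in Pre-dual, 49.5 in Post-solo and 41.3 in Post-dual. The next gene in every library was ACVR2A, with 8.63, 9.78, 6.31 and 7.32 RPM per kilobase in the same order, and its interval lay far below that of TDGF1. SMAD3, ACVR2B, ACVR1B, LEFTY1 and SMAD2 followed between 3.81 and 7.61 RPM per kilobase. Most neighbours in this middle range had overlapping intervals, and in Post-solo every neighbour from ACVR2A down to SMAD2 did. NODAL, GDF3 and LEFTY2 lay between 0.687 and 2.56 RPM per kilobase in all libraries, and no neighbouring pair of these 3 differed beyond its intervals in any library. Divided by the whole length of the gene, introns included, TDGF1 stayed first, ACVR2B came second, SMAD2 next and NODAL last. RNA came from nuclei, whether the counting took intronic reads is not given in the sources used here, and the annotated exons of SMAD2 add up to 36.4 kilobases.

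**Figure D1:**
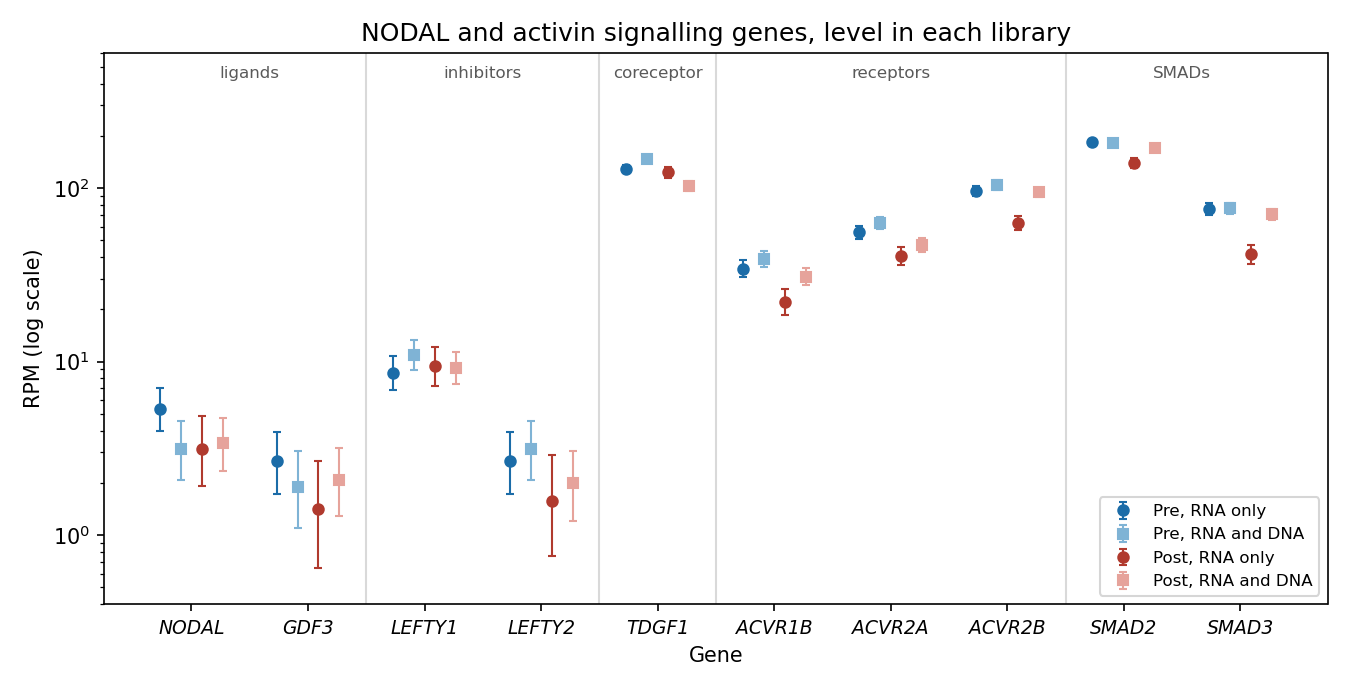
Level of each gene in RPM on a log axis in the 4 libraries (solo is RNA only, dual is RNA and DNA), with 95% counting intervals and 1 library per condition; grey words give the role of each group. TDGF1 stays between 103 and 147 RPM, and NODAL, GDF3 and LEFTY2 between 1.41 and 5.33 RPM, where the intervals are wide.

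The ligands were measured from few reads. NODAL, on chromosome 10 from 70431936 to 70447951 of GRCh38, had 50 counts or 5.33 RPM (interval 3.96 to 7.03) in Pre-solo and 28 counts or 3.12 RPM (2.08 to 4.52) in Pre-dual. It had 20 counts or 3.14 RPM (1.92 to 4.85) in Post-solo and 34 counts or 3.37 RPM (2.33 to 4.71) in Post-dual. Pre-solo was thus the highest and the other 3 libraries lay close together, but its interval overlaps each of theirs. The sequence of an unnamed gene, ENSG00000280401, matches 700 of the 1044 coding bases of NODAL at an identity of 100%. This gene has no row under its name in the count files, and whether it is a separate copy or overlaps NODAL was not tested. NODAL was 0.576-fold (0.349 to 0.932) in Pre-dual over Pre-solo, the only one of its 4 comparisons with an interval clear of 1. In that comparison 7.1% of the genes that averaged 10 RPM or more, a level NODAL did not reach, lay clear below the median. GDF3, a ligand of the same family on chromosome 12 from 7689784 to 7695775, had 25 counts in Pre-solo, 17 in Pre-dual, 9 in Post-solo and 21 in Post-dual. These are 2.67, 1.90, 1.41 and 2.08 RPM, and all of their intervals overlap. In the solo pair GDF3 was 0.726-fold with an interval of 0.298 to 1.61, so no change was detectable at this depth.

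Of the inhibitors, LEFTY1 had a higher level per kilobase of exon than LEFTY2 in every library, with intervals apart. The levels ran from 4.57 against 1.17 RPM per kilobase in Pre-solo to 4.98 against 0.687 in Post-solo. The whole annotated gene is 25.1 kilobases long for LEFTY1 and 4.79 for LEFTY2, so an order by this length rests on these spans. Per kilobase of the whole gene LEFTY1 was lower in Pre-solo (0.344 against 0.557), Pre-dual (0.436 against 0.653) and Post-dual (0.367 against 0.414). In Post-solo it was higher by this length too, at 0.375 against 0.328. LEFTY1, at 225886282 to 225911382 of chromosome 1, had 8.64 RPM (6.86 to 10.7) in Pre-solo, 10.9 RPM (8.88 to 13.3) in Pre-dual, 9.42 RPM (7.19 to 12.1) in Post-solo and 9.22 RPM (7.44 to 11.3) in Post-dual. All of these intervals overlap. Relative to the median gene LEFTY1 was 1.49-fold (1.05 to 2.11) in the solo pair. It was 0.901-fold (0.671 to 1.21) in the dual pair. LEFTY2, at 225936598 to 225941383 of the same chromosome, had 25, 28, 10 and 20 counts in the order Pre-solo, Pre-dual, Post-solo and Post-dual. In RPM these were 2.67, 3.12, 1.57 and 1.98, and none of its 4 comparisons had an interval clear of 1. LEFTY1 took 76.4% (67.2% to 84.1%) of the counts of both genes in Pre-solo, 77.8% (69.5% to 84.7%) in Pre-dual, 85.7% (75.3% to 92.9%) in Post-solo and 82.3% (74.0% to 88.8%) in Post-dual. These intervals overlap throughout, and reads from stretches without a difference cannot be assigned to either gene. NODAL made up 32.1% (24.8% to 40.0%) of the counts of NODAL and both LEFTY genes in Pre-solo and 18.2% (12.4% to 25.2%) in Pre-dual. It made up 22.2% (14.1% to 32.2%) in Post-solo and 23.1% (16.6% to 30.8%) in Post-dual. All 4 intervals overlap, those of Pre-solo and Pre-dual only between 24.8% and 25.2%.

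TDGF1, on chromosome 3 from 46574534 to 46582457, lay above the median gene in the solo pair of Post over Pre and below it in the dual pair. As a plain RPM ratio it was below 1 in both. It had 129 RPM (122 to 137) in Pre-solo and 123 RPM (115 to 132) in Post-solo. It reached 147 RPM (139 to 155) in Pre-dual and 103 RPM (96.6 to 109) in Post-dual, so Pre-dual was the highest and Post-dual the lowest of the 4 libraries. Relative to the median gene it was 1.31-fold (1.19 to 1.43) in the solo pair, where the plain RPM ratio is 0.955, and 0.748-fold (0.689 to 0.812) in the dual pair. Dual over solo was 1.12-fold (1.03 to 1.21) in the Pre libraries and 0.636-fold (0.579 to 0.699) in the Post libraries. TDGF1 overlaps LRRC2, which runs on the opposite strand, and the strand setting of the counting is not given in the sources used here. LRRC2 had 31.1, 35.6, 26.7 and 28.7 RPM in the order used above, and it was 1.17-fold (0.967 to 1.42) in the solo and 0.863-fold (0.734 to 1.01) in the dual pair. POU5F1, a transcription factor of pluripotent cells, was 1.47-fold (1.36 to 1.58) and 0.831-fold (0.775 to 0.891) in the same pairs. What part the overlap or the pseudogenes have in the values of TDGF1 was not tested.

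The receptors had folds between 0.800 and 1.14 relative to the median gene over all 4 comparisons. The type I receptor ACVR1B, at 51951699 to 51997078 of chromosome 12, had 34.3 RPM in Pre-solo, 38.8 in Pre-dual, 22.1 in Post-solo and 30.8 in Post-dual. It was 0.884-fold (0.720 to 1.08) in the solo pair and 0.848-fold (0.726 to 0.991) in the dual pair. ACVR2A, at 147844517 to 147930826 of chromosome 2, had 55.7, 63.1, 40.7 and 47.2 RPM in that order. It was 1.00-fold (0.859 to 1.16) in the solo pair and 0.800-fold (0.706 to 0.905) in the dual pair. ACVR2B, at 38453890 to 38493142 of chromosome 3, had 96.0, 104, 63.0 and 94.4 RPM, and it was 0.899-fold (0.797 to 1.01) in the solo pair and 0.968-fold (0.883 to 1.06) in the dual pair. All 3 receptors were lowest in Post-solo and highest in Pre-dual. In Post-dual over Post-solo ACVR2B was 1.14-fold (1.02 to 1.29), while ACVR2A was 0.885-fold (0.759 to 1.03) and above 1 only as a plain RPM ratio, of 1.16. ACVR2A took 39.2% (35.5% to 43.1%) of the counts of both type II receptors in Post-solo and 33.3% (30.9% to 35.9%) in Post-dual, with intervals that just overlap. This share was 36.7% (34.2% to 39.3%) in Pre-solo and 37.7% (35.2% to 40.2%) in Pre-dual. ACVR2B overlaps its antisense gene ACVR2B-AS1, which had 5 to 17 counts per library. The end of ACVR2A overlaps ORC4, which had 415 to 832 counts per library. These are 65.2 to 86.9 RPM, above ACVR2A in every library. What part this overlap has in the level and folds of ACVR2A was not tested.

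SMAD2 and SMAD3 are the receptor-regulated SMADs, and their ratio to each other was highest in Post-solo. SMAD2, at 47808957 to 47931146 of chromosome 18, had 183 RPM (175 to 192) in Pre-solo, 181 RPM (172 to 190) in Pre-dual, 139 RPM (130 to 148) in Post-solo and 169 RPM (161 to 178) in Post-dual. It kept pace with the median gene in both pairs, at 1.04-fold (0.957 to 1.13) and 1.00-fold (0.935 to 1.07). SMAD3, at 67063763 to 67195173 of chromosome 15, had 75.7 RPM (70.2 to 81.5), 76.2 RPM (70.6 to 82.2), 41.5 RPM (36.6 to 46.8) and 70.4 RPM (65.3 to 75.7) in the same order. It was 0.750-fold (0.649 to 0.865) in the solo pair and 0.987-fold (0.887 to 1.10) in the dual pair. In Post-dual over Post-solo SMAD3 was higher by 0.37 (0.17 to 0.58) on the relative log2 scale, which is the same low value of Post-solo seen from the other side. In Pre-dual over Pre-solo it was 0.989-fold (0.889 to 1.10). SMAD2 made up 77.0% (74.5% to 79.4%) of the counts of both SMADs in Post-solo, 70.8% (68.9% to 72.6%) in Pre-solo, 70.3% (68.4% to 72.2%) in Pre-dual and 70.6% (68.8% to 72.4%) in Post-dual. Such a share does not depend on the scaling of the libraries, and the first interval overlaps none of the others. In the solo pair 7.14% of all genes had a lower ratio than SMAD3, and intervals clear of the median were common there, as given below for all genes.

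**Figure D2:**
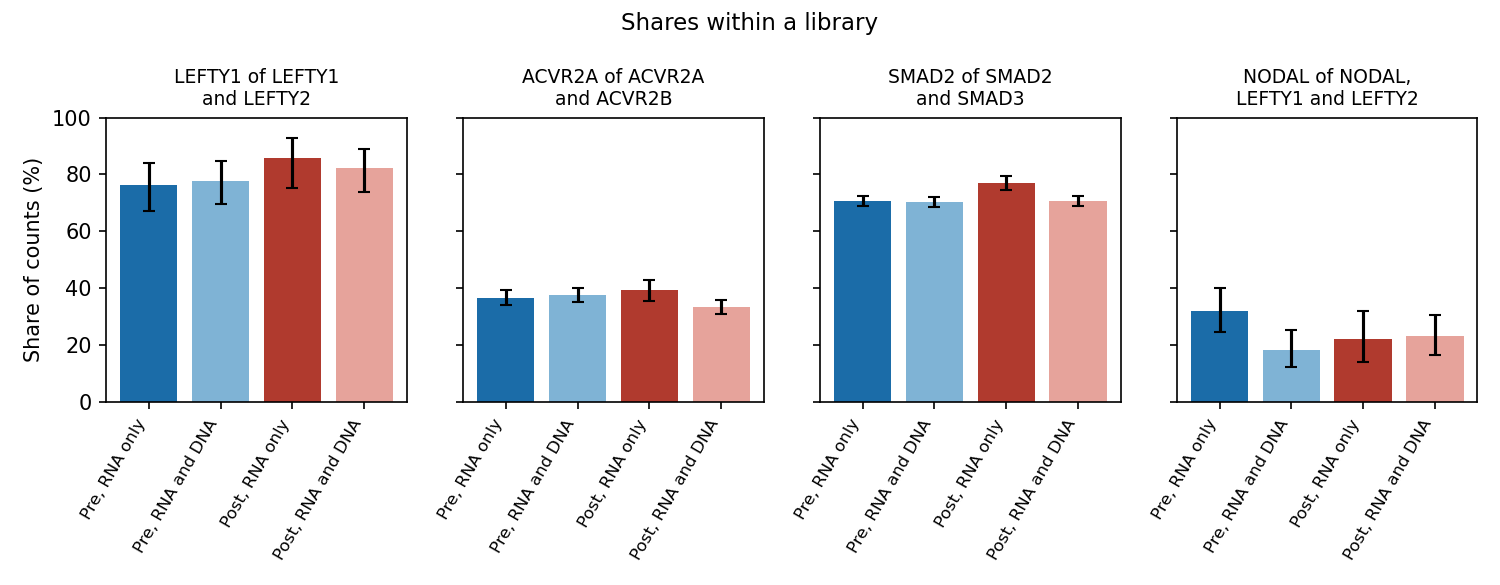
Share of counts, in percent, that 1 gene takes within its family in each of the 4 libraries (solo is RNA only, dual is RNA and DNA), with exact 95% binomial intervals as error bars. The share of SMAD2 stands at 77.0% in Post-solo and between 70.3% and 70.8% in the other libraries, and the shares of LEFTY1 have overlapping intervals.

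No member was apart by the size used for calls. A gene was called where its ratio of RPM + 1 lay 2-fold or more from the median of all genes, provided it averaged 10 RPM or more, which 6 of the 10 members did (TDGF1, the receptors and the SMADs). NODAL, GDF3, LEFTY1 and LEFTY2 fell below it, LEFTY1 with a mean of 9.55 RPM. In each of the 4 comparisons 0 of the 6 members were called. Of all genes 1.38% were called for Post over Pre in the solo pair, 0.251% in the dual pair, 0.0173% for dual over solo in the Pre libraries and 2.36% in the Post libraries. The median relative log2 ratio of all 10 members was −0.12 in the solo pair, −0.09 in the dual pair, 0.12 for dual over solo in the Pre libraries and −0.13 in the Post libraries, where that of all genes is 0 by construction. Without subtraction of the median of all genes it was −0.56 in the solo pair and 0.25 for dual over solo in the Post libraries. With 5 RPM added in place of 1 the median in the solo pair was 0.02, with 5 members above and 5 below 0. With 0.5 RPM added it was −0.16. Of the alternatives tried only 5 RPM turned its direction, an amount near or above the levels of NODAL, GDF3 and LEFTY2 (1.41 to 5.33 RPM). On the relative scale members were above 0 in 3, 2, 6 and 3 cases in the same order and below 0 in 7, 8, 4 and 7.

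Counting intervals alone cleared the median for many genes. In the solo pair 1 of the 6 lay above it (TDGF1) and 1 below (SMAD3), where 20.3% of all genes lay above and 19.8% below. In the dual pair 0 lay above and 3 below (TDGF1, ACVR1B and ACVR2A), where the shares of all genes were 17.9% and 19.4%. For dual over solo in the Pre libraries 1 lay above (TDGF1) and 0 below, against 7.48% and 7.1% of all genes, and in the Post libraries 2 lay above (ACVR2B and SMAD3) and 1 below (TDGF1), against 19.3% and 21.5%. An additive model of both factors over the 4 libraries leaves 1 residual degree of freedom. It fits 1 effect of each factor, so opposite ratios such as those of TDGF1 largely cancel in it. Its edgeR estimate of log2(Post over Pre) for TDGF1 was −0.01. At an adjusted p under 0.05 it called 0 of the 6 members for either factor, in edgeR and in DESeq2, and 0 of them at an unadjusted p under 0.05. For the order of RT edgeR called 0.0173% and DESeq2 0.225% of all genes, and for DNA profiling they called 0% and 0.00865%.

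**Figure D3:**
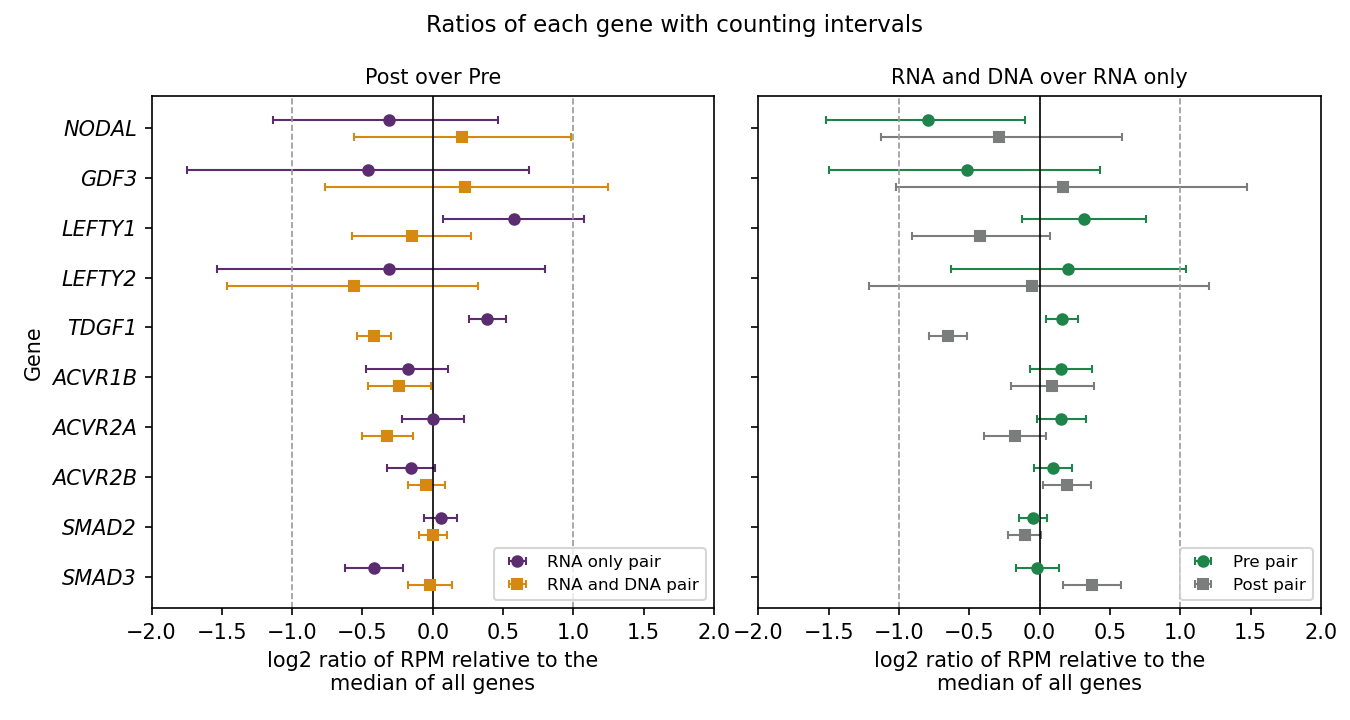
Log2 ratio of RPM of each gene relative to the median of all genes (0), without a pseudocount and with exact 95% counting intervals, for Post over Pre (left) and for dual (RNA and DNA) over solo (RNA only) (right); dashed lines mark 2-fold. TDGF1 lies above 0 in the solo pair (1.31-fold, although its plain RPM ratio is 0.955) and below it in the dual pair (0.748-fold), and SMAD3 lies below 0 in the solo pair only (0.750-fold).

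Further genes of the pathway were taken from lists by role. Of 55 such genes 29 had a mean of at least 10 RPM, and 0 of these were called in any of the 4 comparisons. Their median relative log2 ratio was −0.13 in the solo pair, with 6 intervals above and 9 below that of all genes, where 20.3% and 19.8% of all genes lay above and below. It was −0.02 in the dual pair, with 4 above and 3 below, where the shares of all genes were 17.9% and 19.4%. For dual over solo 0 lay above and 1 below in the Pre libraries, against 7.48% and 7.1% of all genes. In the Post libraries 8 lay above and 8 below, against 19.3% and 21.5%. Among 11 ligands those with the most counts were TGFB1, with 59.4 to 91.3 RPM, and GDF11, with 27.6 to 47.3 RPM. The activin subunit INHBA had 2 to 12 counts per library and INHBB 0 to 2. Of the convertases that cleave ligand precursors, PCSK5 had 63.3 to 94.0 RPM and PCSK6 7.85 to 16.9 RPM. Of the other coreceptors, TGFBR3 had 16.5 to 22.1 RPM and CFC1B, which belongs to the family of TDGF1, 1 to 5 counts. The TGF-beta receptors TGFBR1 and TGFBR2 had 52.4 to 71.9 RPM and 39.1 to 63.3 RPM. Among extracellular inhibitors FSTL1, a secreted follistatin-like protein, had 83.2 to 93.2 RPM and BAMBI, a pseudoreceptor, 3.77 to 6.47 RPM.

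Inside the nucleus the SMAD coactivators EP300 and CREBBP had 142 to 209.6 RPM and 107 to 183 RPM. FOXH1, the DNA-binding partner of SMAD2 and SMAD3 on NODAL targets, was chosen after its values were seen. It had 12.3 RPM in Pre-solo, 15.4 in Pre-dual, 17.9 in Post-solo and 11.4 in Post-dual. Its relative log2 ratio for Post over Pre, with 1 RPM added, was 0.95 in the solo pair and −0.31 in the dual pair. For dual over solo it was 0.28 in the Pre libraries and −0.99 in the Post libraries. Without a pseudocount FOXH1 was at the 2-fold line in the solo pair (interval 1.53 to 2.61) and 0.486-fold (0.372 to 0.635) for dual over solo in the Post libraries, so it escaped both calls only through the 1 RPM added. Of 11 negative regulators 10 were past the filter, and in the solo pair their intervals split into 3 above and 6 below that median, against the 20.3% and 19.8% of all genes. In the dual pair 1 lay above, 1 below and 8 included it. In the solo pair SKIL, a corepressor of SMADs, was 1.25-fold (1.15 to 1.36), although it had 161 RPM in Pre-solo against 147 in Post-solo. NEDD4L, a ubiquitin ligase that acts on activated SMADs, was 0.808-fold (0.747 to 0.873) in the same pair. Both intervals included 1 in the dual pair, at 1.03-fold (0.957 to 1.10) and 1.01-fold (0.953 to 1.07). Of 8 targets only NANOG passed the filter, with 34.0, 36.0, 30.1 and 29.7 RPM from Pre-solo to Post-dual. It was 1.21-fold (1.01 to 1.46) in the solo pair, where its plain RPM ratio was below 1, and 0.882-fold (0.751 to 1.04) in the dual pair. WNT3, with the next most counts, had 4.66 to 5.36 RPM. The mesendoderm targets GSC, TBXT and SOX17 had 0 to 3 counts per library, where 3 counts, the upper limit that a count of 0 allows in a one-sided sense, are 0.297 to 0.471 RPM.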

How the data were processed

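Per the labels and the study's methods, the deposited files hold raw counts for each gene symbol. The submitters' processing notes and those methods say that the authors assigned barcodes with Bowtie 1.3.1, trimmed reads with Trim Galore 0.6.10, aligned them to GRCh38 with STAR 2.7.11b, kept uniquely mapped reads (mapping quality above 50) and removed duplicates by position and unique molecular identifier. These steps are described for single-cell data, and the gene annotation, the strand setting and the treatment of introns are not given in the sources used here. Each file holds 1 labelled barcode column, and 60 other barcode columns were not used. The authors' counts were scaled by each library's total, with a pseudocount of 1 RPM for log2 ratios and for calls, and none for folds and their intervals. Intervals are 95% exact Poisson (RPM), Clopper-Pearson (shares) and conditional binomial (folds). Genes were placed, and exon lengths summed, with GENCODE 44, and copies were found with BLAST 2.17.0. The members, lists, comparisons and alternatives were chosen with earlier results of these data known. Of each role list the 2 genes with the highest mean RPM are named, and FOXH1, INHBA, INHBB, GSC, TBXT and SOX17 were named after their values were seen. Tested on simulated counts of 11589 genes with a 3-fold change in 199 past the filter, the size rule recovered 190 in the solo pair, with 19 false calls. For the order of RT the additive model recovered 199 with edgeR and 191 with DESeq2, with 12 and 4 false calls. The simulation gave both Post libraries the same 3-fold changes, at a dispersion of 0.02. Recovery of effects that differ between the solo and the dual pair was therefore not tested. The changed genes were drawn only from genes with means above the filter, and all libraries followed the same pooled profile. Recovery near the filter, of changes smaller than 3-fold, or with the larger share of the FP236383 and FP671120 genes in Post-solo was not tested either. Python 3.11.15, scipy 1.17.1, R 4.3.3, edgeR 4.0.16 and DESeq2 1.42.0 were used.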

Additional observations from a re-analysis of the deposited data

Results flagged for a closer look

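TDGF1 had intervals clear of the median of all genes on opposite sides in the pairs compared. Its relative log2 ratio of Post over Pre was higher by 0.79 in the solo pair than in the dual pair. That of dual over solo was higher by 0.80 in the Pre libraries than in the Post libraries. Of all genes past the filter 10.2% had intervals clear of the median on opposite sides for the order of RT and 7.93% for DNA profiling, and 6.88% and 6.76% differed by as much as TDGF1 or more. POU5F1 differed by 0.80 and 0.81, and FOXH1 by 1.26 and 1.27. As plain RPM ratios, Post over Pre lay below 1 in both pairs. Both differences come from the same 4 values, and neither was tested, since each condition is 1 library.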

How the results depend on the processing

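No paired analysis was possible because each condition is 1 library and the labels carry no replicate numbers. The number of members called stayed at 0 in the 4 comparisons under other pseudocounts, TMM and median-of-ratios sizes, totals without the 6 FP236383 and FP671120 genes, other filters and thinning to the smallest total. At a fold of 1.5 it was 1 for dual over solo in the Post libraries (TDGF1). There 6.46% of the genes that averaged 10 RPM or more had a lower ratio than TDGF1. The share of all genes called at a fold of 1.5 was not computed, so this call is not read as a result about TDGF1. As plain RPM ratios, with the median of all genes not subtracted, the members had a median log2 ratio of −0.56 for Post over Pre in the solo pair and 0.25 for dual over solo in the Post libraries. These differ from the relative values by the medians that were not subtracted. With a pseudocount of 5 RPM the median in the solo pair turned from −0.12 to 0.02, and with thinning that for dual over solo in the Post libraries went from −0.13 to −0.02. The order of genes per length changed for 8 of 10 members with the whole gene as length and for 2 with the longest transcript. Depth limits NODAL, GDF3 and LEFTY2 most, with 9 to 50 counts per library.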

Other observations

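Among the 26 pathway genes under the filter, 5 of 104 counting intervals were clear of the median of all genes, which is 4.81%. Over all 22070 genes with a count under the filter the share was 5.83%, so the pathway genes did not exceed it. The 5 intervals belong to FST, INHA, INHBE and TGFB3, which were named after their values were seen.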
